A study of Mus musculus with 14 samples.

Results

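The Ikaros family of zinc finger transcription factors was examined in sorted mouse regulatory T cells (Treg), the CD4+ Foxp3+ cells that restrain other T cells. All probe sets that the array annotation assigns to a single gene were taken for Ikzf1 (Ikaros), Ikzf2 (Helios), Ikzf3 (Aiolos), Ikzf4 (Eos) and Ikzf5 (Pegasus). This gave 13 probe sets of 5 genes, out of 34945 single-symbol probe sets of 18193 genes on the array. Of the 13, 12 passed a filter that asked for a signal of at least 100 in at least 3 arrays. The exception was probe set 1460664_at of Ikzf4, whose highest signal was 155, and it was not tested.

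The 14 arrays fell into 4 groups, and all donors of the sorted cells were Foxp3-ires-GFP knock-in mice on the 129/SvJ background (H-2b), in which GFP reports the Foxp3 locus. Naive Treg cells came from resting spleens and form 2 control sets, replicates 1 to 3 and replicates 4 to 6. GVHD-activated Treg cells (n = 3) were sorted on day 4 from the spleens of BALB/c hosts (H-2d) that had received 900 cGy, 2000000 wild-type 129/SvJ marrow cells and 2000000 knock-in CD4+ and CD8+ T cells; GVHD is graft-versus-host disease, the attack of donor T cells on host tissue. Allogeneic tumor-activated Treg cells (n = 5) came from the ascites of knock-in mice, 5 days after 1000000 P815 cells (a DBA/2 mastocytoma, H-2d) were given into the peritoneum. By the series design, naive replicates 1 to 3 are the controls of the GVHD samples and naive replicates 4 to 6 those of the tumor samples. A sort purity above 95% is given for all groups except naive replicates 1 to 3, whose protocol, beside the resting spleen, also describes ascites and spleen cells of mice given RMAS tumor cells and gives no purity. By title the samples are biological replicates, without word of whether each is its own animal; every p-value here therefore rests on the variation among these arrays, which may be partly technical.

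Ikaros family proteins bind DNA through N-terminal zinc fingers and pair with each other through C-terminal ones. Ikaros, Helios and Aiolos are largely lymphoid. Like Eos, they recruit chromatin corepressors and recognise sites with a GGGAA core, whereas Pegasus is broadly expressed and differs in the sites it binds. In Treg cells Helios is a marker of thymus-derived cells and of stability, and Eos is a Foxp3 partner that helps silence effector genes.

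Because GGGAA is the core these factors read, the RefSeq start sites of the members were searched for it on both strands (GGGAA or TTCCC). RefSeq promoters on build GRCm38.p6 were at hand for 2 of the 5 genes, in 3 windows, each taken as the 250 bases before the start site. The first Ikzf1 window, chr11:11685675-11685924 on the plus strand, held 0 matches at 82.0% G and C. The second Ikzf1 start site and the Ikzf5 start site are shown, with each match in capitals, written 5′ to 3′ on the gene's strand.
Ikzf1, chr11:11689927-11690176, plus strand: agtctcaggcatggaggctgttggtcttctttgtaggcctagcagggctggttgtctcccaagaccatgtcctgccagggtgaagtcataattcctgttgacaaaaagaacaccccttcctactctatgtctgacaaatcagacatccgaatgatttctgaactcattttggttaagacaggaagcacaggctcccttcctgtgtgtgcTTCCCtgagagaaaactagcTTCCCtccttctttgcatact
Ikzf5, chr7:131410479-131410728, minus strand: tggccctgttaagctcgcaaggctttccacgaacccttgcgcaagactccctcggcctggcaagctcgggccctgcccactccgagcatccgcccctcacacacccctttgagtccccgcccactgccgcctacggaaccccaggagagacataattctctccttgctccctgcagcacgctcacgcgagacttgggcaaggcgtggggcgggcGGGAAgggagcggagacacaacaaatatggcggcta
The Ikzf1 window held 2 matches, which begin 41 and 21 bases before the start, both in the TTCCC orientation. The Ikzf5 window held 1 match, GGGAA, beginning 36 bases before the start. Such a match is common: 18477 of 32851 RefSeq mouse promoters of the same length (56.2%) held at least 1.

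Signals are Affymetrix probe set intensities from MAS5, rescaled so that the 2% trimmed mean of each array is 500; a level cannot be set against that of another probe set. A change is a difference of mean log2(signal + 32), which understates changes of dim probe sets. It was tested with limma over 22143 single-symbol probe sets in all 14 arrays and called at a Benjamini-Hochberg adjusted p under 0.05. Between 45.5% and 55.4% of probe sets reached 100, apart from tumor replicate 3 at 37.3%. GVHD arrays were deposited at a trimmed mean of 1500 and the others at 500, and the naive 1 to 3 files differ in number format from the rest, so processing and group cannot be told apart for these sets. Gapdh probe sets at the 3′ and 5′ ends of the transcript gave a ratio, which rises as RNA degrades, of 3.28 to 5.11 in the GVHD arrays and naive replicates 1 to 3. The ratio reached 7.45 to 19.1 in naive replicates 4 to 6 and 19.9 in tumor replicate 2, against 2.19 to 2.64 in the remaining tumor arrays.

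Marker genes of other cells were high in the tumor arrays. The summed signal of 12 T cell genes was 71556 to 103382 in naive replicates 4 to 6, 22604 to 56578 in 4 tumor arrays and 9462 in tumor replicate 3, and 9 of the 12 fell in the tumor comparison (median log2 change -1.90). The summed signal of 13 mast cell and mastocytoma genes was 391 to 8063 in those naive arrays and 72442 to 145873 in the tumor arrays; that of 13 macrophage genes was 2815 to 6591 against 26967 to 75778. Naive replicate 6 stood apart from replicates 4 and 5 in several of these genes. It read 1402 for Trap1a against 6.8 and 16.9, 1851 for Rhox5 against 21.5 and 7.5, and 463 for Marco against 4.3 and 2.4. Not every listed gene did so (Tpsb2 read 17.9 against 71.7 and 32.1). Settings without naive replicate 6 are given below. Of the tested genes, 9 of 10 mast cell and 11 of 13 macrophage genes were called up, but 7 and 5 of those tested passed the filter only through the tumor arrays. Against naive replicates 1 to 3 (130681 to 150985), the GVHD arrays had a summed T cell signal of 132545 to 155881, and 0 of the 12 T cell genes were called by limma. The GVHD arrays had mast cell sums of 444 to 720 against 524 to 857 and macrophage sums of 3320 to 5772 against 1410 to 1706, with 1 macrophage gene called (Ccr2, up, a chemokine receptor that T cells also carry) and 0 mast cell genes; none of the markers was at 0 in any array. Ccr2 alone read 3937, 2549 and 2407 in GVHD against 318, 225 and 318, so it made up most of each GVHD macrophage sum. The B cell sums were 13861 to 23568 in naive replicates 1 to 3, 10009 to 25901 in naive replicates 4 to 6, 16513 to 24606 in GVHD and 1337 to 8757 in the tumor arrays, with 6 of 9 tested genes down in the tumor comparison. In the naive and GVHD arrays most of each sum was Ighm alone (12563 to 22509 in naive replicates 1 to 3, 15946 to 23560 in GVHD). Between the naive sets, 3 of the 9 were called higher in replicates 4 to 6 and 0 lower (median log2 change 1.15). Ms4a1 read 71.9 to 179 in naive replicates 1 to 3 and 421 to 1777 in naive replicates 4 to 6. In bulk RNA, fewer cells of a type and less RNA per cell cannot be told apart. Foxp3, which defines the sorted cells, had 1 probe set, never above 108.1, which failed the filter and checks nothing here.

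In the GVHD comparison 3 of 12 probe sets fell and 0 rose: both tested probe sets of Eos and the brighter one of Pegasus. This was 25.0% of the members, where 20.6% of all probe sets tested were called, 8.69% up and 11.9% down. In the tumor comparison 3 of 12 also fell and 0 rose: 1 of Eos, 1 of Pegasus and a dim one of Aiolos, again 25.0%, where 30.5% of all probe sets were called, 14.1% up and 16.4% down. The members' shares were thus near those of the whole array. The median member changed by -0.30 (log2) in GVHD and -1.14 in tumor, where the median of all probe sets was -0.14 and -0.12. The groups did not overlap for 6 of 12 members in GVHD (46.5% of all probe sets) and for 3 of 12 in tumor (33.8% of all probe sets).

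**Figure D1:**
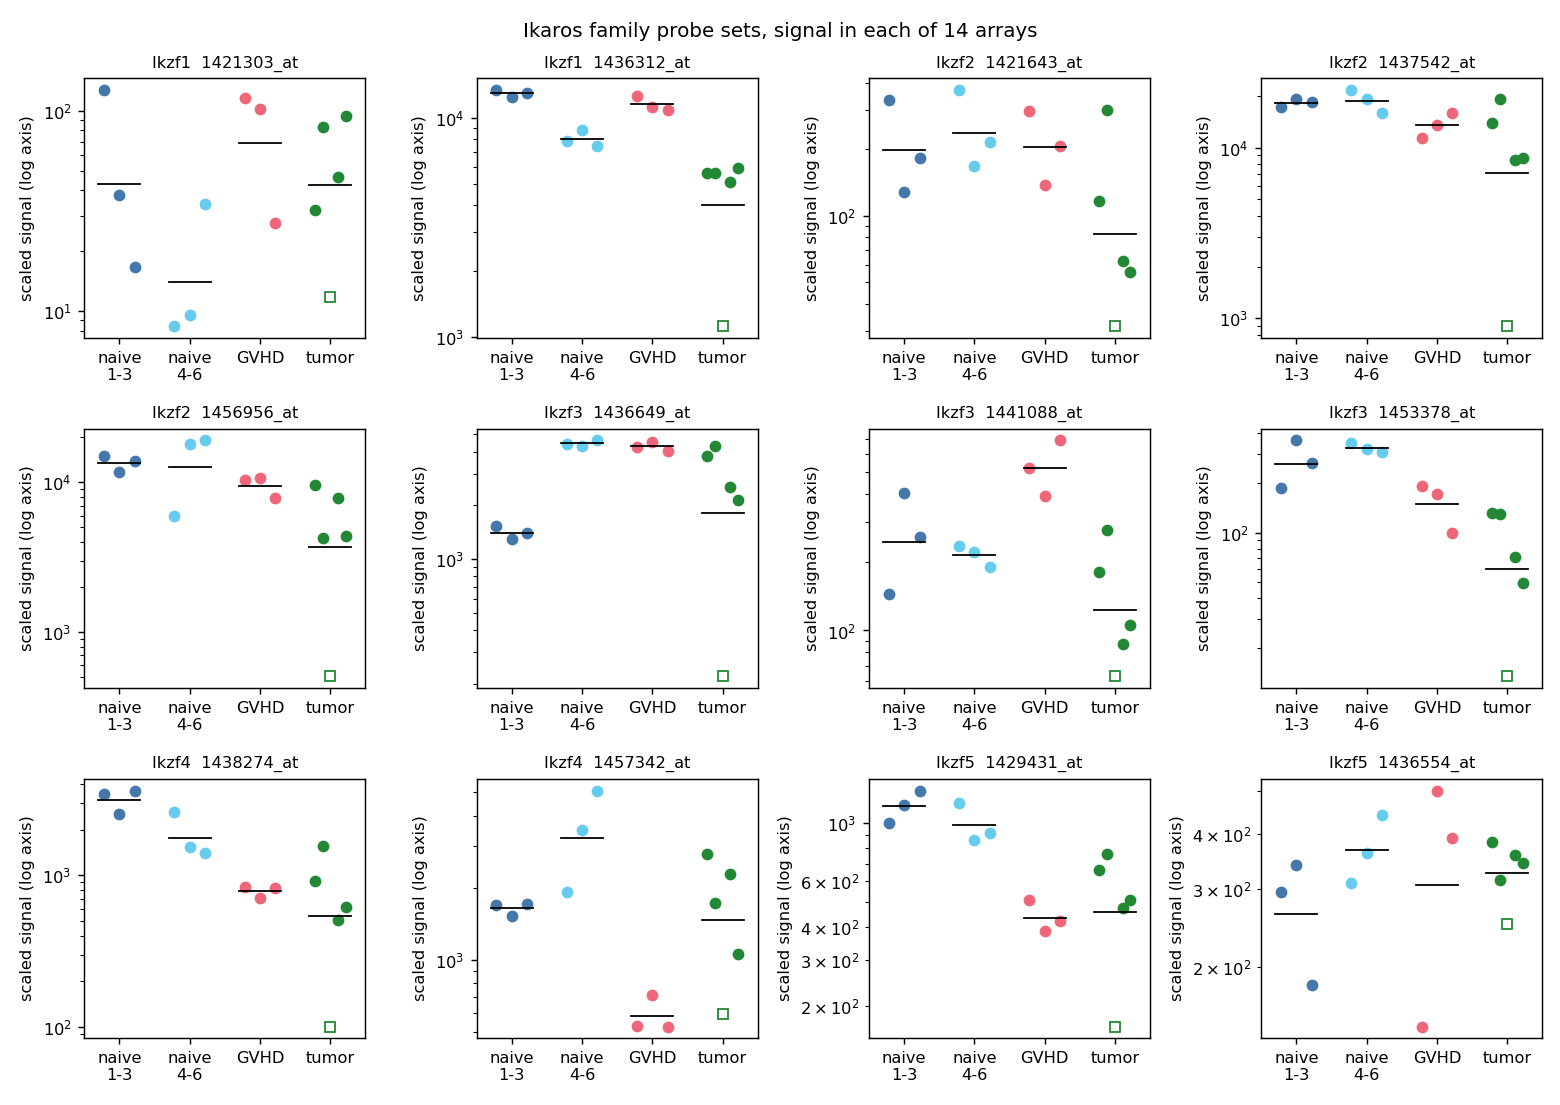
Scaled signal (log axis) of the 12 tested Ikaros family probe sets in each of the 14 arrays, by group; points are arrays, the open square is tumor replicate 3, and the bar is the mean of the log2 signals. In Ikzf4 and the Ikzf5 probe set 1429431_at the GVHD arrays lie under all naive replicates, while Ikzf3 1436649_at separates naive replicates 1 to 3 from naive replicates 4 to 6.

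**Figure D2:**
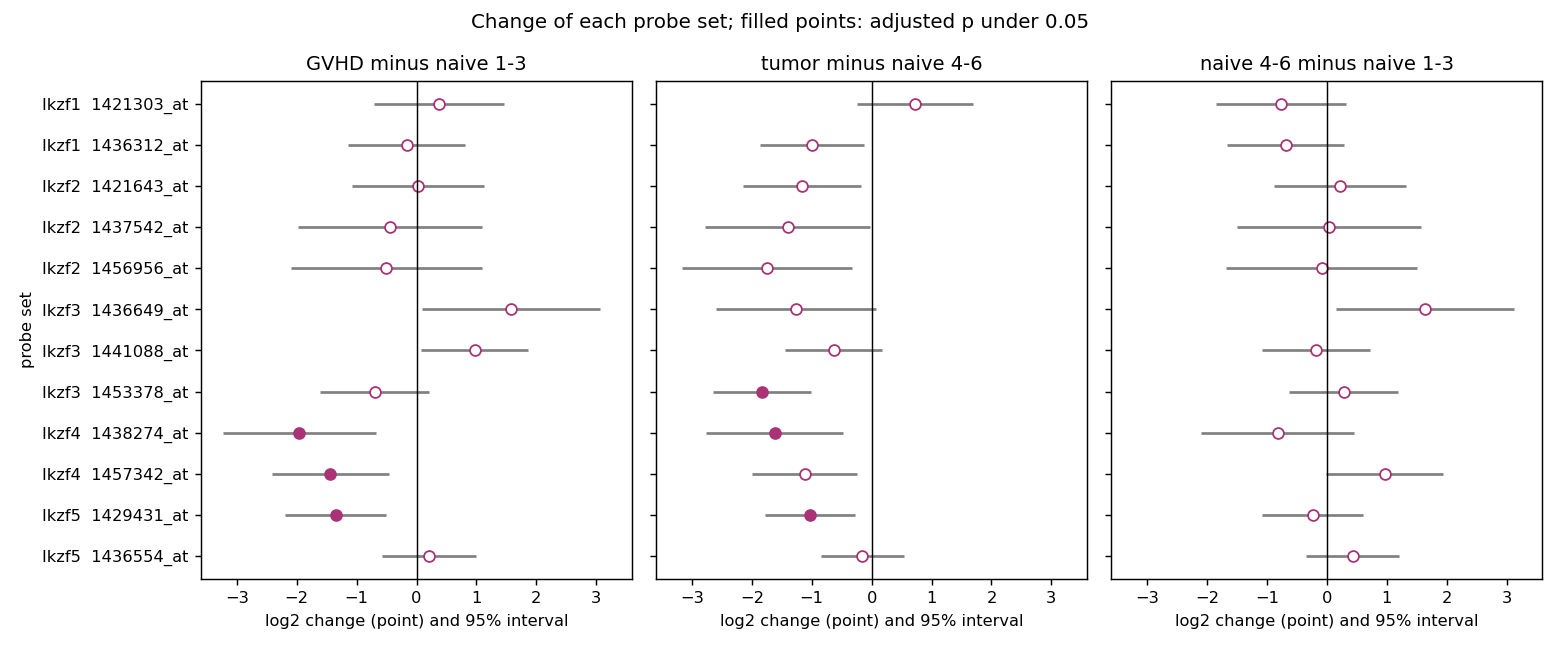
Log2 change of each tested probe set with its 95% confidence interval from limma, in the GVHD comparison, the tumor comparison and between the naive sets. Filled points have an adjusted p under 0.05: 3 in GVHD, 3 in tumor and 0 between the naive sets.

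Eos (Ikzf4) was lower in GVHD-activated Treg cells in both of its tested probe sets. For 1438274_at the signal was 3427, 2523 and 3625 in naive replicates 1 to 3 and 835, 713 and 826 in the GVHD replicates. All 3 GVHD arrays lay under every naive array of either set, since naive replicates 4 to 6 gave 2599, 1528 and 1404. The fall was 3.88-fold (log2 -1.96, SE 0.60, limma adjusted p = 0.0305). For 1457342_at the signal was 1695, 1517 and 1713 in naive replicates 1 to 3 and 531, 715 and 526 in GVHD. Here too the groups were apart, and the fall was 2.71-fold (log2 -1.44, SE 0.46, limma adjusted p = 0.0368).

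Which naive set served as control altered the size of the Eos change but not its direction. Set against naive replicates 4 to 6, the GVHD change was -1.14 for 1438274_at (limma adjusted p = 0.163, not called) and -2.41 for 1457342_at (adjusted p = 0.0012). Over the alternatives, adjusted p ran from 1.16e-05 to 0.561 for the first, called in 18 of 27, and from 0.000121 to 0.864 for the second, called in 19 of 28. Both probe sets lost the call when any 1 array of naive replicates 1 to 3 or of GVHD was left out. Of the 14 settings without 1 array, the 8 that kept it dropped an array of neither group, which leaves the change itself as it was. Such settings also enter the tallies of the other members. For 1438274_at, naive replicates 4 to 6 read lower than naive replicates 1 to 3, with overlap (log2 -0.82 between the sets, adjusted p = 0.432). The probe sets ordered the naive sets differently, because 1457342_at was higher in naive replicates 4 to 6, at 1916, 3473 and 5094, than in every one of naive replicates 1 to 3 (log2 0.97, adjusted p = 0.212). Over the 14 arrays their log2 signals correlated at only r = 0.46, or 0.31 without tumor replicate 3.

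In tumor-activated Treg cells the Eos signal of 1438274_at was 910, 1569, 100, 509 and 618 in replicates 1 to 5. Tumor replicate 2 lay among the naive replicates 4 to 6 and tumor replicate 3 was far under all other arrays. The fall was 3.07-fold (log2 -1.62, SE 0.54, limma adjusted p = 0.0322), and 2.12-fold without tumor replicate 3 (log2 -1.08, adjusted p = 0.0135). Over the alternatives adjusted p ran from 3.71e-05 to 0.492, called in 21 of 28. The call was lost without naive replicate 4 (log2 -1.35, adjusted p = 0.131), 5 (-1.73, 0.0735) or 6 (-1.78, 0.0559), or tumor replicate 4 (-1.59, 0.055). For 1457342_at the tumor signals were 2765, 1734, 596, 2274 and 1054, overlapping the naive range, and the difference did not pass the test (log2 -1.12, SE 0.41, adjusted p = 0.0505; 0.000442 to 0.789 over the alternatives, called in 8 of 29). The tumor change minus the GVHD change did not pass the test, at 0.34 for 1438274_at (95% interval -1.38 to 2.05, adjusted p = 0.868) and 0.32 for 1457342_at (-0.99 to 1.63, adjusted p = 0.831). This contrast carries the gap between the naive sets, so it does not show the changes to be alike. For 1457342_at the mean log2 signal was 10.56 in tumor and 9.27 in GVHD, against 11.68 in naive replicates 4 to 6 and 10.71 in naive replicates 1 to 3. Over the alternatives the difference was called in 1 of 26 for 1438274_at and in 2 of 27 for 1457342_at (lowest limma adjusted p 0.0437 and 0.0104).

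Pegasus (Ikzf5), the most distant member in sequence, followed Eos 1438274_at in its brighter probe set. The signal of 1429431_at was 997, 1166 and 1330 in naive replicates 1 to 3 and 508, 387 and 421 in GVHD, with no overlap. The fall was 2.54-fold (log2 -1.35, SE 0.40, limma adjusted p = 0.0248), and against naive replicates 4 to 6 (1192, 860 and 918) it was 2.16-fold (log2 -1.11, adjusted p = 0.0433). The naive sets overlapped for this probe set. In tumor the signal was 660, 761, 167, 474 and 506, again under all 3 of its controls. That fall was 2.04-fold (log2 -1.03, SE 0.36, adjusted p = 0.0377) and 1.63-fold without tumor replicate 3 (log2 -0.70, adjusted p = 0.0169). Over its alternatives adjusted p ran from 0.00024 to 0.716 in GVHD, called in 21 of 28, and from 0.000596 to 0.279 in tumor, called in 20 of 29. Its log2 signal tracked that of Eos 1438274_at over the 14 arrays, which share the groups and the scaling, at r = 0.96 (0.92 without tumor replicate 3); with Eos 1457342_at it was 0.63 (0.56).

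The other Pegasus probe set did not show this. Its signal (1436554_at) ranged from 181 to 341 in naive replicates 1 to 3, from 310 to 442 in naive replicates 4 to 6, from 146 to 502 in GVHD and from 250 to 385 in tumor. All 4 ranges overlapped, and the changes were 0.21 in GVHD (SE 0.37, limma adjusted p = 0.742) and -0.15 in tumor (SE 0.33, adjusted p = 0.764). The fall of Pegasus therefore rests on 1 of its 2 probe sets.

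The leave-one-out counts changed in GVHD, while the changes themselves moved little. The 3 calls became 1 without naive replicate 1 or GVHD replicate 1, 0 without naive replicate 2 or 3 or GVHD replicate 2 or 3, and 4 without tumor replicate 3, which enters the shared estimate of the spread. In the settings without 1 naive 1 to 3 or GVHD array, 13.6% to 16.5% of all probe sets were called, and without tumor replicate 3 it was 33%. Where its call was lost, the change was -2.11 to -1.86 for 1438274_at, -1.58 to -1.37 for 1457342_at and -1.34 to -1.25 for 1429431_at. In the two-sided exact permutation test of single probe sets, with 24 tests, 6 probe sets reached p = 0.1 in GVHD (both of Eos, Pegasus 1429431_at, Helios 1437542_at and 1456956_at, and Aiolos 1436649_at), the smallest that 3 against 3 arrays allow, and 0.2308 after Benjamini-Hochberg adjustment.

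Helios (Ikzf2), the member most tied to Treg identity, did not pass the test in either comparison. For 1437542_at the signal was 17258, 19318 and 18546 in naive replicates 1 to 3 and 11411, 13534 and 15939 in GVHD. The GVHD arrays were all lower, by log2 -0.44 (SE 0.73, limma adjusted p = 0.719), a difference whose 95% interval runs from -1.98 to 1.09. For 1456956_at the GVHD arrays were again all lower, at 10328, 10657 and 7879 against 15023, 11786 and 13988 (log2 -0.50, SE 0.75, adjusted p = 0.69). Against naive replicates 4 to 6 the changes were -0.48 (adjusted p = 0.647) and -0.42 (adjusted p = 0.705). Set beside Eos at -1.96 and -1.44, these are smaller values, but the difference between the genes was not tested.

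In tumor the Helios signal of 1437542_at was 13900, 19395, 896, 8511 and 8643, against 21718, 19290 and 15990 in naive replicates 4 to 6. Tumor replicate 2 reached the naive range, and the change of -1.40 did not pass (SE 0.65, limma adjusted p = 0.113). For 1456956_at the tumor signals were 9682, 4239, 505, 7878 and 4407 against 5967, 18117 and 19109, overlapping through naive replicate 4 (log2 -1.75, SE 0.67, adjusted p = 0.0581). Without tumor replicate 3 this second probe set passed, at -1.05 (adjusted p = 0.0355), and the first did not, at -0.67 (adjusted p = 0.0579). Over the alternatives, adjusted p ran from 2.62e-05 to 0.793 for 1456956_at, called in 8 of 28, and from 0.000324 to 0.422 for 1437542_at, called in 4 of 29. The remaining Helios probe set, 1421643_at, was dim (32 to 369) and was not called in GVHD (0.03) or tumor (-1.16, adjusted p = 0.0686).

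Ikaros (Ikzf1), the founding member, needed for normal lymphocyte development, did not pass the test in either comparison. The signal of 1436312_at was 13421, 12517 and 13077 in naive replicates 1 to 3 and 12686, 11213 and 10943 in GVHD, with 1 GVHD array inside the naive range. The change was -0.17 (SE 0.46, limma adjusted p = 0.845, 95% interval -1.14 to 0.81). Against naive replicates 4 to 6 it was 0.52 (adjusted p = 0.407), so its sign changed with the control set. In naive replicates 4 to 6 the signal was 7892, 8850 and 7485, under all of naive replicates 1 to 3 (log2 -0.69, SE 0.46, adjusted p = 0.38; 0.00855 without tumor replicate 3). In tumor it was 5631, 5592, 1115, 5081 and 5889, under all 3 of its controls. With every tumor array in the fit the change of -0.99 did not pass (SE 0.41, adjusted p = 0.0776). Without tumor replicate 3 the change was smaller and passed, at -0.54 (SE 0.15, adjusted p = 0.0124); over the alternatives adjusted p ran from 0.000203 to 0.526, called in 7 of 29. The other Ikaros probe set, 1421303_at, lay between 8.4 and 127 and was not called (0.38 in GVHD, 0.73 in tumor).

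Aiolos (Ikzf3), which partners with Ikaros in mature lymphocytes, had a brightest probe set whose level differed between the naive sets. The signal of that probe set, 1436649_at, was 1531, 1304 and 1399 in naive replicates 1 to 3 but 4432, 4302 and 4621 in naive replicates 4 to 6. These are the same labelled cell type, apart by 3.11-fold (log2 1.64, SE 0.70, limma adjusted p = 0.167; 0.000259 without tumor replicate 3). In GVHD it was 4261, 4551 and 4024, above all of naive replicates 1 to 3 and within or under the range of naive replicates 4 to 6. The GVHD change was 1.58 against the assigned controls (SE 0.70, adjusted p = 0.128; 6.48e-05 without tumor replicate 3) and -0.06 against naive replicates 4 to 6 (adjusted p = 0.959). Over the alternatives adjusted p ran from 1.16e-05 to 0.959, called in 5 of 28.

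In tumor the 1436649_at signal was 3783, 4320, 220, 2519 and 2131, with tumor replicate 2 inside the naive 4 to 6 range. The change was -1.26 against the assigned controls (SE 0.63, limma adjusted p = 0.143) and 0.38 against naive replicates 1 to 3. The difference between the tumor and the GVHD change was -2.84 (SE 0.95, unadjusted p = 0.00825, adjusted p = 0.0813). It was -2.11 without tumor replicate 3 (adjusted p = 0.000308), where the contrast still carries the gap between the naive sets. Across all members the test of this difference called 0 of 12, where it called 8.07% of all probe sets; 2 members had an unadjusted p under 0.05, both of Aiolos. Between the naive sets it called 0 of 12 (7.06% of all), with 1 unadjusted p under 0.05, that of 1436649_at.

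The dimmer Aiolos probe sets did not all follow the brightest one in GVHD. The signal of 1453378_at was 349, 322 and 307 in naive replicates 4 to 6 and 131, 129, 13, 71 and 50 in tumor, with every tumor array lower. The fall was 3.57-fold (log2 -1.84, SE 0.39, limma adjusted p = 0.0024), and it was called in 27 of 28 alternatives (adjusted p 1.32e-06 to 0.88). In the exact permutation test it gave p = 0.03571, two-sided, and 0.2308 adjusted over the 24 tests. In GVHD the same probe set, at 191, 172 and 100 against 185, 363 and 265, was not called (log2 -0.70, adjusted p = 0.279). For 1441088_at the GVHD arrays read 519, 390 and 689 against 145, 403 and 258 in naive replicates 1 to 3, overlapping by 1 array (log2 0.97, SE 0.42, adjusted p = 0.121). Against naive replicates 4 to 6 (236, 223 and 190) that change was 1.16 and passed (adjusted p = 0.048); adjusted p over its alternatives ran from 0.000146 to 0.544, called in 6 of 27. For tumor, 1441088_at read 181, 276, 63, 87 and 106, a change of -0.64 that did not pass (adjusted p = 0.22).

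The tumor falls were also set beside the T cell signal. When the mean log2 signal of 12 T cell genes was subtracted on each array, Eos 1438274_at lay at -1.86 to -1.37 in naive replicates 4 to 6 and at -1.61 to -1.19 in tumor, tumor replicate 3 included. Aiolos 1453378_at lay at -4.16 to -3.79 in those naive arrays and at -4.51 to -2.76 in tumor. Pegasus 1429431_at did not overlap, at -2.67 to -2.31 in those naive arrays and -2.21 to -0.63 in tumor. Refitted on that scale, the tumor change of Eos 1438274_at was 0.30 (limma adjusted p = 0.492), that of Pegasus 1429431_at was 0.89 (adjusted p = 0.084) and that of Aiolos 1453378_at was 0.085 (adjusted p = 0.88). On the same scale the median of all probe sets stood at 1.80, since subtracting a lower T cell mean raises every probe set. The part of the T cell, mast cell and macrophage signals in the tumor changes was not tested.

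In GVHD, Eos 1438274_at was called on that scale too. It lay at -1.92 to -1.49 relative to the T cell genes in naive replicates 1 to 3 and at -3.56 to -3.32 in GVHD, with no overlap, and the change was -1.81 (limma adjusted p = 0.034). For Eos 1457342_at it was -1.29 (adjusted p = 0.416) and for Pegasus 1429431_at -1.20 (adjusted p = 0.328), close in size to the unscaled changes but not called. Helios 1437542_at lay at 0.80 to 1.00 in naive replicates 1 to 3 and at 0.25 to 0.90 in GVHD. In tumor it lay at 1.59 to 2.52, against 1.68 to 1.77 in naive replicates 4 to 6.

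**Figure D3:**
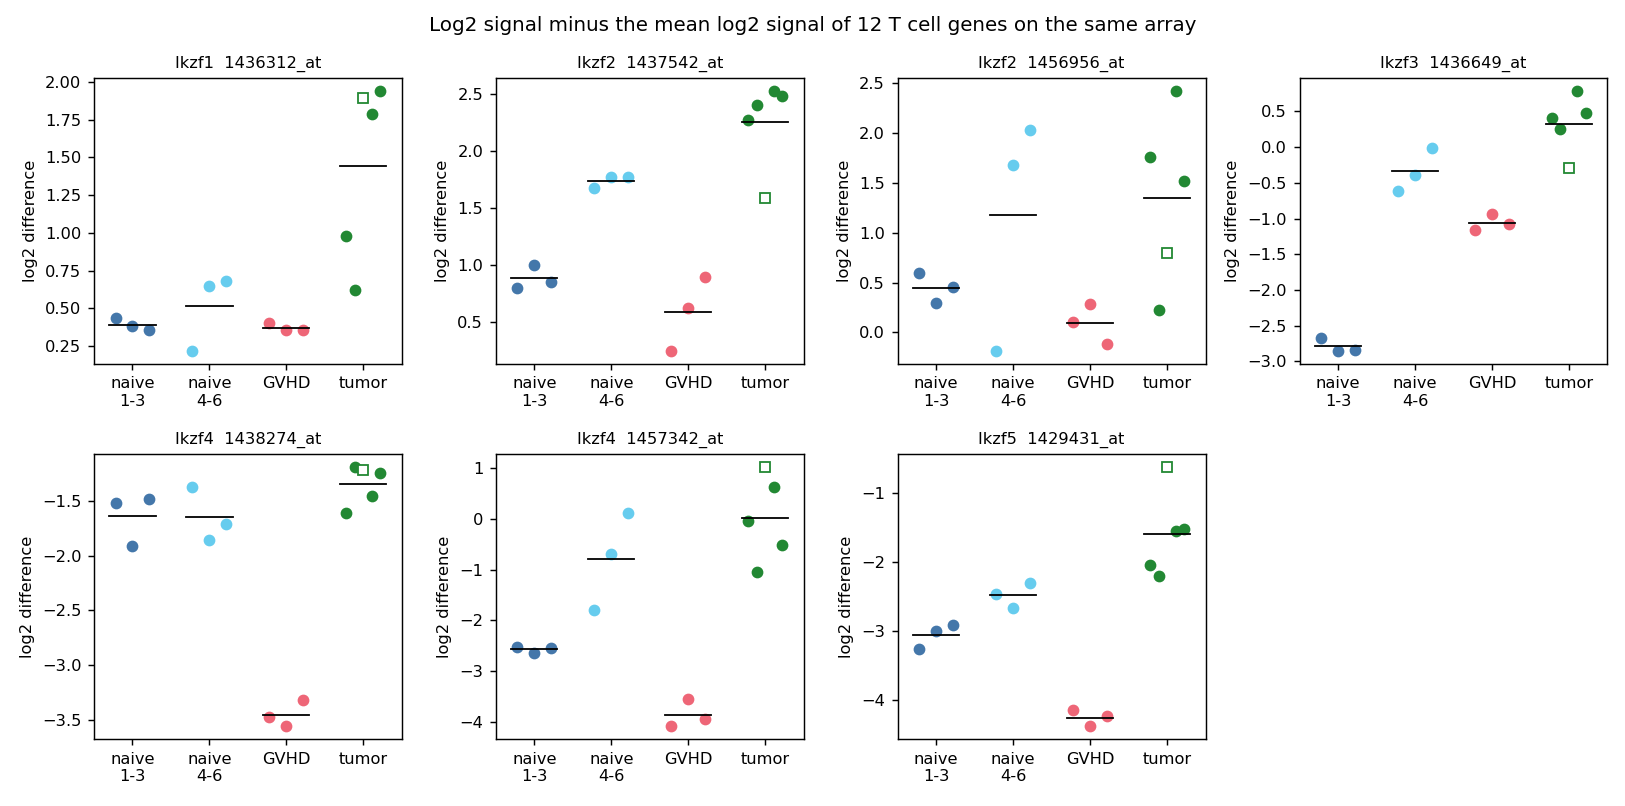
Log2 signal of the Ikaros family probe sets that exceeded 1000 in any array, minus the mean log2 signal of 12 T cell genes on the same array; points are arrays, the open square is tumor replicate 3, and the bar is the group mean. Ikzf4 1438274_at lies between -3.56 and -3.32 in GVHD and between -1.92 and -1.19 in all other arrays.

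**Figure D4:**
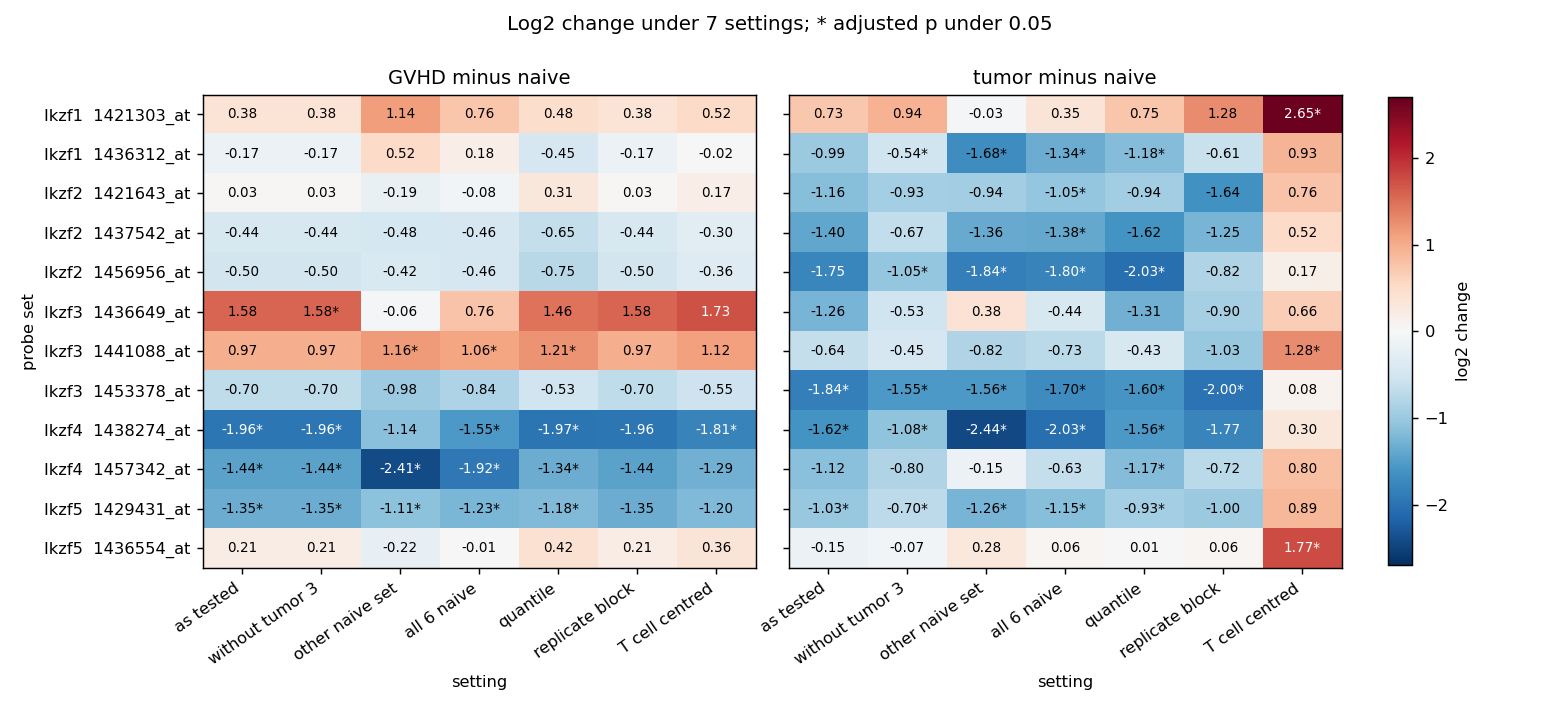
Log2 change (colour and number) of the 12 tested probe sets in the GVHD and tumor comparisons under 7 settings, with an asterisk where the limma adjusted p is under 0.05. Ikzf4 and Ikzf5 1429431_at are negative in GVHD in every column shown, Ikzf3 1436649_at goes from 1.58 to -0.06 with the other naive set, and every tumor value is positive after centring on the T cell genes.

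Genes around the family were counted from lists with 1 probe set per gene; of all 12212 genes tested, 21.7% were called in GVHD (9.55% up, 12.1% down; median -0.11) and 31.2% in tumor (16% up, 15.3% down; median -0.06). The share of all probe sets called moved with the setting, from 20.6% in GVHD and 30.5% in tumor. Without tumor replicate 3 it was 33% and 33.3%, and without naive replicate 6 it was 19% and 21.2%. With the naive sets exchanged it was 31.5% and 44.3%. The list counts under these settings, here and below, stand beside those shares. Ikaros family proteins repress through the NuRD, Sin3 and CtBP corepressors, and most of these 17 genes were not called. In GVHD 1 rose and 2 fell (median 0.07): Mbd2, a methyl-CpG reader, rose by 1.15, while the NuRD subunits Mta3 and Gatad2b fell by 1.61 and 1.03 on the log2 scale. Without tumor replicate 3 the counts were 5 up and 3 down, and without naive replicate 6 they were 0 up and 1 down. In tumor 1 rose and 2 fell (median -0.30): Sin3b rose by 0.79, while the remodeller Chd3 fell by 1.90 and the deacetylase Hdac1 by 0.80. Ctbp1, the corepressor through which Eos is known to act with Foxp3, was not called (0.16 in GVHD, adjusted p = 0.789; -0.45 in tumor, adjusted p = 0.27). With the naive sets exchanged, the corepressor counts were 6 up and 1 down in GVHD and 0 up and 7 down in tumor.

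Ikaros and Aiolos are the proteins that thalidomide-type drugs send to the cereblon ubiquitin ligase. Of its 5 genes, 1 rose and 0 fell in GVHD, the adaptor Ddb1 (log2 1.22, limma adjusted p = 0.00686). In tumor 0 rose and 1 fell, the RING subunit Rbx1 (-1.22, adjusted p = 0.00531). Its probe set was dim, at 131, 98.2, 65.3, 108 and 122 in tumor against 198, 359 and 313 in naive replicates 4 to 6. The receptor gene Crbn was not called (-0.48 in GVHD, adjusted p = 0.239; -0.39 in tumor, adjusted p = 0.247). Casein kinase 2 and protein phosphatase 1 set the phosphorylation of Ikaros; of 5 measured genes 1 rose in GVHD, the phosphatase subunit Ppp1ca (0.99, adjusted p = 0.00337), and 0 were called in tumor (1 up with the other naive set). Leaving out tumor replicate 3 raised the GVHD counts to 2 up in each of these lists and gave 1 up and 1 down for the ligase in tumor; with the naive sets exchanged, the ligase counts were 1 up and 2 down in GVHD and 3 up and 1 down in tumor.

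Of 23 genes reported as targets of the family in lymphocytes, 17 passed the filter, and they went both ways. In GVHD 3 rose and 2 fell (median -0.07): the cell cycle inhibitor Cdkn1a (3.29), the Th1 factor Tbx21 (2.92) and the cytokine gene Ifng (2.03) rose, and the survival gene Bcl2 and the growth regulator Myc fell by 4.35 and 1.88. Without tumor replicate 3 the counts were 3 up and 4 down. In tumor 3 rose and 3 fell (median -0.14): Cdkn1a (4.17), Il4 and Dntt rose, and Dtx1, Il7r and Notch1 fell by 4.66, 1.82 and 1.79. Il4 and Dntt passed the filter only through the tumor arrays, so that their calls follow from that choice. Il4 read 213, 437, 1361, 225 and 494 in tumor and at most 67.6 elsewhere, and Dntt 59.7, 110, 242, 251 and 217 against at most 79.4. The tumor counts were 4 up and 4 down without tumor replicate 3, 2 up and 3 down without naive replicate 6, and 3 up and 5 down with the other naive set (median -0.85). Il4 is also a mast cell product, and the mast cell genes above rose in the same arrays. Which cells gave the Il4 signal was not tested. Il2, the gene most often named as an Eos and Helios target in Treg cells, never exceeded 108.1 and was not tested.

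Among Foxp3 partner transcription factors, 16 of 17 on the array passed the filter. In GVHD 1 rose and 4 fell (median -0.76): the Runx partner Cbfb rose by 0.70, and Foxp1, Bach2, Gata1 and Foxo3 fell by 3.90, 3.83, 2.28 and 1.69. The counts were 2 up and 8 down without tumor replicate 3. In tumor 1 rose and 9 fell (median -1.28), beside the falls of the T cell genes; Xbp1, a secretory factor, rose by 1.27, and Bach2, Lef1, Gata3 and Foxp1 fell by 3.44, 2.57, 2.27 and 2.27. Without naive replicate 6 the tumor counts were 1 up and 5 down.

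Centring on the T cell genes turned the tumor counts of these lists upward, on a scale where the median of all probe sets was 1.80 and 65.4% of them were called. The counts became 14 up and 0 down for the corepressors (median 1.62), 3 up and 0 down for the ligase (1.81) and 5 up and 0 down for the kinase and phosphatase (1.98). They became 10 up and 1 down for the reported targets (1.78) and 6 up and 1 down for the Foxp3 partners (0.64).

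The genes whose log2 signal over the 14 arrays was most like that of the brightest probe set of each member were named by Pearson correlation; the arrays share groups and scaling, and tumor replicate 3 weighs heavily. For Ikzf1 these were Jak1 (r = 0.985), Celf2, Cd4 and Zap70, and for Ikzf2 they were Cbl (0.979), Fam102a, Itga6 and Syt11. For Ikzf3 they were Maf (0.978), Erbb3, Vps54 and Slc22a15. For Ikzf4, whose brightest probe set is 1457342_at, they were Zfp467 (0.963), Iws1, Tox and Arid4a, and for Ikzf5 2610005L07Rik (0.979), Skil, Vps13b and Stat6. Without tumor replicate 3 the first-ranked gene was Saraf (0.979) for Ikzf1, Gimap8 (0.950) for Ikzf2, Maf (0.944) for Ikzf3, Zfp467 (0.958) for Ikzf4 and Parp6 (0.975) for Ikzf5, so that the leading gene stayed for Ikzf3 and Ikzf4 only.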

How the data were processed

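The files hold probe set signal intensity values that the authors deposited from MAS5, per the submitters' processing notes; its version and settings do not appear in the sources used here. Sample groups and control assignments follow the labels. Signals were scaled to give each array a 2% trimmed mean of 500, then taken to log2(signal + 32). Gene symbols came from the platform annotation, and only probe sets with 1 symbol were used. A means model of the 4 groups was fitted to all 14 arrays with limma 3.58.1 (lmFit, eBayes with trend, R 4.3.3) over 22143 probe sets with a signal of at least 100 in at least 3 arrays, Benjamini-Hochberg adjusted at 0.05, after the code was tested on simulated data. Lists used the probe set with the highest mean per gene. All member probe sets are named, with the 4 genes most like each member and up to 4 called genes per list, by size of change, and genes that define a list. The members and lists were chosen with earlier results of these data known. Replicate numbers shared between groups did not pair samples. Alternatives were the offset, filter, scaling, controls, array weights, a replicate block and leaving out arrays. The number of arrays limits the precision.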

Additional observations from a re-analysis of the deposited data

Results flagged for a closer look

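Tumor replicate 3 lay far under the other 4 tumor arrays in 4 member probe sets, by the gap to the nearest other array as a share of the whole range (Dixon's test, critical value 0.71 for 5 arrays). For Ikzf1 1436312_at the gap was 0.911 of the range, at log2 10.16 against 12.32 to 12.53. For Ikzf2 it was 0.73 for 1437542_at (9.86 against 13.06 to 14.25) and 0.716 for 1456956_at (9.07 against 12.06 to 13.25). For Ikzf3 1436649_at it was 0.755, at 7.98 against 11.08 to 12.09. Of the 12 member probe sets and the T cell mean tested in the tumor group, 4 of these 13 values stood out. All 4 come from the same array, so they are not independent. The chance rate of about 1 in 20 holds for a single value and cannot be set against this count. How many of all probe sets this array stands out in was not counted, so the 4 are not shown to be particular to the family. In tumor replicate 3, 37.3% of probe sets reached 100, the lowest share of any array. The mean log2 signal of 12 T cell genes was also lowest there, at 8.27 against 10.54 to 11.84 in the other tumor arrays, though under the critical value. The part of that in the 4 values was not tested.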

How the results depend on the processing

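Among the named members' changes, 1090 of 1288 values under the alternatives kept direction and side of the threshold, 84 gained a call, 37 lost it, 69 changed sign with no call on either side, and 8 reversed. The values kept include settings without an array outside the comparison, where the change is the same by construction. They also include probe sets that were called in neither setting, so their number does not measure how firm the changes are. Signals as deposited set GVHD arrays at a trimmed mean of 1500 against 500, so the GVHD change became 1.42 for Ikzf1 1436312_at, 0.10 for Ikzf4 1457342_at and 0.17 for Ikzf5 1429431_at, with 6 members called (all up) in GVHD and 8 in the difference between the changes. Beside each member count, the share of all tested probe sets called is in parentheses, here 62.5% and 56.8%. Centring on T cell genes turned the tumor change to 1.28 for Ikzf3 1441088_at, 0.085 for Ikzf3 1453378_at, 0.30 for Ikzf4 1438274_at, 0.89 for Ikzf5 1429431_at and 1.77 for Ikzf5 1436554_at; the 3 tumor calls were then all up (1421303_at of Ikzf1, 1441088_at of Ikzf3 and 1436554_at of Ikzf5), (65.4%), and the count was 1 in GVHD (2.83%), 1 in the difference (7.01%) and 1 between the naive sets (0.89%). The GVHD count of 3 became 6 with only the groups compared (34.4%), 5 with array weights (35.7%) and 0 with the replicate block (14.9%). The tumor count of 3 became 6 under quantile normalization (31.3%), 1 with only the groups compared (21.1%), 11 with array weights (59.9%), 1 with the replicate block (9.23%), 5 with the other naive set (44.3%), 7 with all 6 naive arrays (40%), and 7 with naive replicates 4 and 5 against tumor replicates 1, 4 and 5 (33.8%), the last chosen after seeing the data. The difference, 0 members, became 1 under quantile normalization (8.96%), 2 with array weights (26.3%), 3 with the other naive set (35.5%), 3 with all 6 naive arrays (28%) and 1 without tumor replicate 3 and naive replicate 6 (12.9%). The naive sets, 0 members, differed in 2 with only the groups compared (17.1%), 4 with array weights (40.6%) and 2 without those arrays (12.1%). Leaving out 1 array gave 0 to 4 in GVHD, 1 to 5 in tumor, 0 to 2 in the difference and 0 to 2 between the naive sets. Without tumor replicate 3 the count was 4 in GVHD (33%) and 2 between the naive sets (19.1%). The difference reached 2 without tumor replicate 2 (9.41%). The tumor count was 1 without naive replicate 5 (16.8%) or 6 (21.2%) and 5 without tumor replicate 1 (30.8%), 2 (34%) or 3 (33.3%). Same-numbered samples did not deviate together (r = 0.041, 0.089 and -0.044 for GVHD, -0.508 and 0.09 for tumor), so the block tests a shared number only. Where no value shows it, the cause was not tested. Dim probe sets, 1 of 13 left out, are limited by signal over background.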
